A study of Homo sapiens with 5 samples.

Results

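The 10 genes described here are called DNA replication licensing genes: MCM2, MCM3, MCM4, MCM5, MCM6, MCM7, MCM10, CDC6, CDT1 and ORC1. Other subunits of the origin recognition complex, ORC2 to ORC6, are not among them. The 10 genes were taken as a named list, 10 of the 20175 protein-coding genes of the annotation, with no cutoff on a measured value. Cells of SKMEL-147, an established line from human melanoma, were crosslinked with formaldehyde, and their chromatin was immunoprecipitated with an antibody to PHF8, a histone demethylase with a PHD finger and a Jumonji C domain. The 3 ChIP replicates were named A, B1 and B2, and 2 input libraries, A and B, carried no antibody. All 5 samples came from the same line and the labels name no treatment, so a single condition was measured and no cells lacking PHF8 were compared. Nothing in the labels says that the replicates came from separate cultures, and the spread between them may therefore be technical. B1 and B2 share a letter, and the labels do not say whether they are closer in origin to each other than to A.

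Licensing is the loading of the replicative helicase onto DNA before S phase. The origin recognition complex, whose largest subunit is ORC1, binds origins and recruits the ATPase CDC6, and CDT1 brings the MCM2 to MCM7 hexamer, which is then loaded around DNA. MCM10 acts later, when the loaded helicase is activated. The genes of this pathway are known E2F targets that are transcribed as cells pass from G1 into S phase. PHF8 reads trimethylated lysine 4 of histone H3, a mark of active promoters, through its PHD finger, and removes methyl groups from H3K9 and H4K20.

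Each ChIP replicate was deposited as a list of peaks, with 21506 peaks in A, 20882 in B1 and 20120 in B2. The value of a peak was its fold enrichment, a linear ratio of ChIP fragments to the local background at the summit, which is the highest point of the peak. The same small constant is added to the fragments and to the background before division, so the value is lower than their plain quotient. The median peak had a fold enrichment of 18.9, 11.8 and 11.8 in A, B1 and B2, so the scale of A stood apart and genes were ranked within each replicate. ChIP fragments under each summit were recovered from the deposited values, with a median of 54, 39 and 40 in A, B1 and B2. Total sequencing depth was not given. Of 6 melanocyte lineage genes, MITF, SOX10 and PMEL had a promoter peak in all 3 replicates, MLANA, TYR and DCT had none, and none was found at 4 genes of other lineages. A peak at a promoter is not a measure of expression.

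Sequence upstream of the gene start is shown for 4 licensing genes, because the E2F and CCAAT letters there are set against the peaks further on. Each run is the 200 bases just upstream of the annotated gene start, 5′ to 3′ on the strand of the gene, in hg19, and none of them overlapped an annotated exon. Capitals mark E2F matches (TTTCCCGC, TTTGGCGC or TTTCGCGC on either strand, overlapping matches included) and CCAAT boxes (CCAAT on either strand, thus also ATTGG).

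MCM6, chr2:136634014-136634213, minus strand: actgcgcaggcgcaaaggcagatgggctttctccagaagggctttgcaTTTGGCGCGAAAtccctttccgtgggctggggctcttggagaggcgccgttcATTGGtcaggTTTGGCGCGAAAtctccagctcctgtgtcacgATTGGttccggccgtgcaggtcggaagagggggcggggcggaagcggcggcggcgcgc

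MCM5, chr22:35795927-35796126, plus strand: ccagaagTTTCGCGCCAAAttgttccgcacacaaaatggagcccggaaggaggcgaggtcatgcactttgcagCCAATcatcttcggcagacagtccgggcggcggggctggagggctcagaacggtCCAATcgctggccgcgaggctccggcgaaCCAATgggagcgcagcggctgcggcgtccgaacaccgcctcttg

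CDT1, chr16:88869997-88870196, plus strand: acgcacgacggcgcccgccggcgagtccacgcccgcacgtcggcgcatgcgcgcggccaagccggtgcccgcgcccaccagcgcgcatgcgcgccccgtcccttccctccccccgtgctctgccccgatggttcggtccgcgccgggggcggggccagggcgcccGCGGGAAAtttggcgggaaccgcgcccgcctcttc

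CDC6, chr17:38443931-38444130, plus strand: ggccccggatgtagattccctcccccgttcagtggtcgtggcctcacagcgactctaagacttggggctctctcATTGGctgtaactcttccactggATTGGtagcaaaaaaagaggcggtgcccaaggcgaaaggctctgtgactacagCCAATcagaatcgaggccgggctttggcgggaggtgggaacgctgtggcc

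MCM6 and MCM5 each held a 12-base block in which E2F matches on the 2 strands overlapped, TTTGGCGCGAAA at 2 places in MCM6 and TTTCGCGCCAAA at 1 place in MCM5. CDT1 held a single E2F match and no CCAAT box in this stretch. CDC6 held 3 CCAAT boxes upstream, and its E2F match lay just downstream of the gene start. Only the exact letters were counted here and below, so near matches, such as tttggcggg in CDT1 and CDC6, are not marked.

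PHF8 occupied the promoter of every licensing gene. All 10 had a peak within 1 kb of an annotated transcription start site (TSS) in each of the 3 replicates, against 60.2% of protein-coding genes. The 10 promoters were all CpG-island-like, with a GC share of at least 0.5 and a CpG ratio of at least 0.6 within 250 bp of the gene start. Of the CpG-island-like protein-coding genes, 80.8% were bound in this way. With a fold enrichment above 10 required in all 3 replicates, 9 of the 10 were kept against 49.6% of protein-coding genes, and MCM6 was lost through its value in B1. No peak lay in the body of any of the 10 genes outside the TSS windows. The genes ran from 5470 bp (CDT1) to 49553 bp (MCM10). The windows themselves covered part of the bodies, since MCM4 had 25 annotated TSS positions and MCM7 had 11. The same share over bound genes was not computed, so this cannot be called particular to the licensing genes.

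The level of occupancy was moderate. The median fold enrichment of the strongest promoter peak over the 10 genes was 27.5, 14.1 and 14.2 in A, B1 and B2, and over the 12139 bound protein-coding genes it was 33.4, 19.4 and 18.4. On the log2 scale, licensing genes minus bound genes gave −0.28, −0.46 and −0.38, a mean of −0.37 ± 0.09 (SD, n = 3 replicates). As a percentile among the bound genes of the same replicate, where 50 is the middle gene, their median was 36.1, 28.8 and 32.0 in A, B1 and B2. Of the 10 genes, 4 had a mean percentile above 50, whereas 50.8% of all bound genes did. Ranked by the recovered fragments in place of fold enrichment, the median percentile was 34.7, against 31.9 for the mean percentiles by fold enrichment. Among CpG-island-like bound genes alone it was 28.8.

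**Figure D1:**
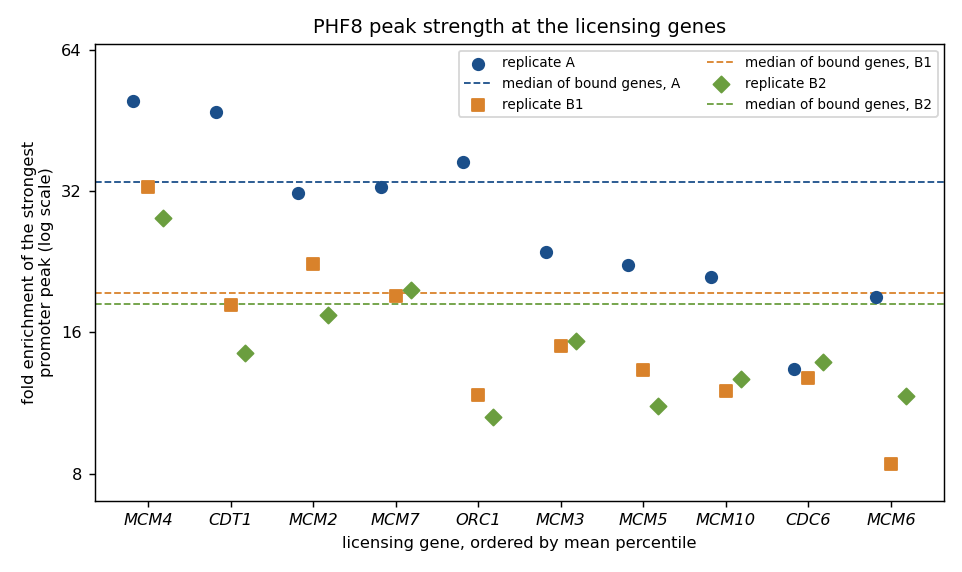
Fold enrichment of the strongest promoter peak (vertical axis, log scale) for each licensing gene (horizontal axis, ordered by mean percentile), with 1 point per replicate and a dashed line at the median of the 12139 bound protein-coding genes in that replicate. MCM4 lies above the line of its replicate in all 3, and MCM3, MCM5, MCM10, CDC6 and MCM6 lie below it in all 3.

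Among the helicase subunits, MCM4 had the strongest peak. Its fold enrichment was 49.9, 32.7 and 28.1 in A, B1 and B2, resting on 127, 95 and 102 fragments. With a mean percentile of 87.7 ± 3.27 (SD, n = 3) it ranked above the other 9 genes in every replicate. Its peak spanned the gene start and overlapped the TSS window of PRKDC, the catalytic subunit of the DNA-dependent protein kinase, which begins 7 bp upstream on the opposite strand. Occupancy at this shared promoter cannot be assigned to one gene.

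MCM2 and MCM7 were near the middle of the bound genes. MCM2 (chr3:127317253-127341279, plus strand) had fold enrichments of 31.8, 22.4 and 17.5 in A, B1 and B2 and a mean percentile of 51.6 ± 9.29 (SD, n = 3). MCM7 (chr7:99689856-99699563, minus strand) had fold enrichments of 32.7, 19.1 and 19.7 and a mean percentile of 51.3 ± 4.30 (SD, n = 3). The ranges of these 2 genes overlapped. MCM2 shared its peaks with TPRA1, a gene for a transmembrane protein that starts 143 bp upstream on the opposite strand. MCM7 shared its peaks with AP4M1, a subunit of the AP-4 adaptor complex, whose start lies 391 bp inside MCM7 on the opposite strand.

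The remaining helicase subunits ranked low. MCM3 (chr6:52128812-52149679, minus strand) had fold enrichments of 23.8, 15.0 and 15.3 and a mean percentile of 31.7 ± 5.24 (SD, n = 3). MCM5 (chr22:35796127-35821424, plus strand) had 22.3, 13.3 and 11.2, with a mean percentile of 22.6 ± 3.13 (SD, n = 3). MCM6 (chr2:136597196-136634013, minus strand) was the lowest of the 10 genes on average. Its fold enrichment was 19.1, 8.40 and 11.7 in A, B1 and B2, and its mean percentile was 15.9 ± 6.21 (SD, n = 3). The 48, 36 and 42 fragments behind the MCM6 values had exact Poisson 95% intervals of 35.4 to 63.6, 25.2 to 49.8 and 30.3 to 56.8, which cover counting error only. The intervals of the MCM4 fragments, 106 to 151, 76.9 to 116 and 83.2 to 124, did not overlap them in any replicate. MCM4 and MCM6 were picked as the highest and lowest of the 10 on the same peaks, so this gap is a description only. By mean percentile of fold enrichment, the highest and the lowest of the 10 genes were subunits of one hexamer. The lowest place was not settled, since CDC6 was lowest in A (percentile 8.02) and ORC1 in B2 (17.3). By recovered fragments MCM10, outside the hexamer, had the lowest mean percentile, 17.8 against 18.4 for MCM6.

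Of the loading factors, CDT1 and ORC1 differed most between replicates. CDT1, which is degraded once S phase begins (chr16:88870197-88875666, plus strand), had fold enrichments of 47.1, 18.3 and 14.5 in A, B1 and B2. Its percentile was 81.7, 46.0 and 33.4 in the same order, a mean of 53.7 ± 25.0 (SD, n = 3). ORC1 (chr1:52838501-52870095, minus strand) had fold enrichments of 37.1, 11.8 and 10.6 and percentiles of 59.7, 19.3 and 17.3, a mean of 32.1 ± 23.9 (SD, n = 3). Both were highest in A and lower in B1 and B2. ORC1 shared its peaks with PRPF38A, a pre-mRNA splicing factor that starts 179 bp upstream on the opposite strand.

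CDC6 and MCM10 had low ranks. CDC6, which loads the helicase together with the origin recognition complex (chr17:38444131-38460909, plus strand), had fold enrichments of 13.4, 12.8 and 13.9 in A, B1 and B2. These values hardly differed while most genes were higher in A, so the CDC6 percentile was 8.02, 23.2 and 30.6 in A, B1 and B2. MCM10 (chr10:13203558-13253110, plus strand) had fold enrichments of 21.0, 12.0 and 12.7 and a mean percentile of 22.0 ± 2.98 (SD, n = 3). In the order of mean percentiles, 7 of the 9 neighbouring pairs overlapped in range over the replicates. The exceptions were MCM4 above CDT1 and MCM3 above MCM5. Over all 45 pairs, 26 did not overlap. The same share over pairs of bound genes was not computed, so these counts do not show that the licensing genes were unusually far apart.

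The local background at ORC1, CDC6 and CDT1 also differed between replicates. Over the bound genes, the median difference between A and the mean of B1 and B2 was 0.80 on the log2 scale of fold enrichment. The difference at ORC1 was 1.73 and at CDT1 1.54, larger than at 99.2% and 98.0% of bound genes, and at CDC6 it was 0.01, larger than at 2.22% of them. The expected background at the ORC1 summit was 1.97 fragments, 4.25 and 5.33 in A, B1 and B2, and at the CDC6 summit 4.02, 2.60 and 2.75. At the CDT1 summit it was 1.57, 2.55 and 2.67, and the median over bound genes was 1.76, 2.11 and 2.24. By the recovered fragments alone, ORC1 had 109, 61 and 66, with percentiles of 59.7, 46.5 and 53.3, and CDC6 had 66, 45 and 51, with percentiles of 24.4, 27.3 and 34.9. On that scale the difference between A and B at ORC1 was larger than at 80.5% of bound genes and at CDC6 larger than at 29.5%. CDT1, with 120, 64 and 52 fragments, was still above 97.4% of them. The inputs that set the background are not analysed here, and their part in these differences was not tested.

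**Figure D2:**
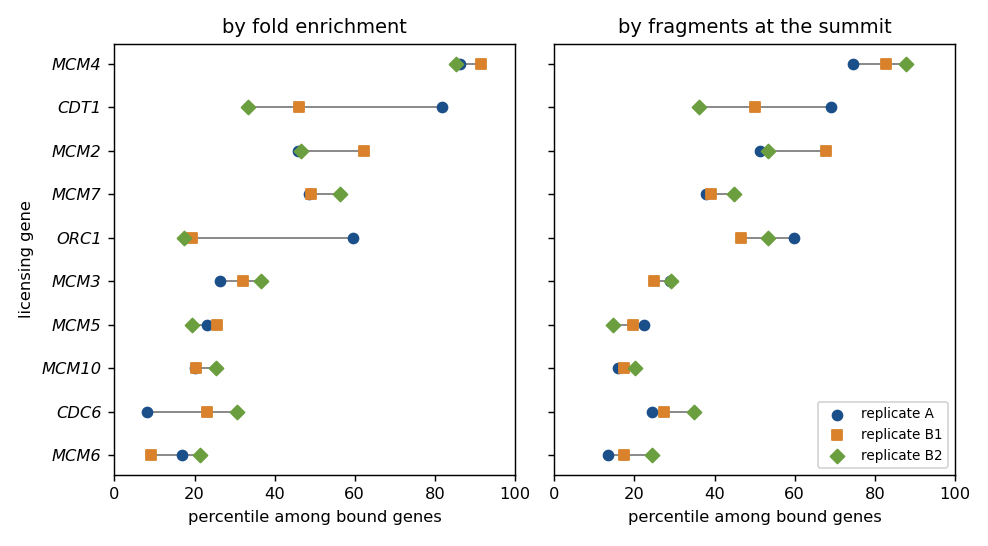
Percentile of each licensing gene among bound protein-coding genes in each replicate (horizontal axes), ranked by fold enrichment on the left and by recovered ChIP fragments at the summit on the right, with a grey line from the lowest to the highest replicate. ORC1 spans 17.3 to 59.7 by fold enrichment and 46.5 to 59.7 by fragments, while CDT1 stays wide on both scales.

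The helicase subunits were compared with the genes that load or activate the helicase. The mean log2 fold enrichment of MCM2 to MCM7 exceeded that of MCM10, CDC6, CDT1 and ORC1 by 0.10, 0.33 and 0.36 in A, B1 and B2, a mean of 0.26 ± 0.14 (SD, n = 3). The difference had the same sign in 3 of 3 replicates, and the exact permutation p, two-sided and by sign flips, was 0.25, the smallest that 3 replicates allow. With recovered fragments the mean difference was 0.04 on the log2 scale (exact permutation p = 0.5), and its sign was not the same in all 3 replicates. The test treated B1 and B2 as separate units, which the labels do not settle. With 3 replicates this test could not pass a threshold of 0.05 whatever the values, so the difference is given as a description.

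The summits of the strongest peaks lay on either side of the start, and their places recurred between replicates. In MCM3, MCM6, MCM7, MCM10 and CDC6 the strongest summit was downstream of the nearest TSS in all 3 replicates, at mean offsets of 123, 137, 159, 104 and 97.3 bp. These summits lay in a coding exon in MCM3 and MCM6, in an annotated UTR in MCM7 and CDC6 and in an intron in MCM10. Such a position was held by 5 of the 10 genes and by 55.0% of bound genes. In MCM5, CDT1, ORC1 and MCM4 it was upstream in all 3 replicates, at mean offsets of −369, −304, −301 and −177 bp. MCM2 changed sides, with offsets of −306 bp, 173 bp and −297 bp in A, B1 and B2. Its upstream and downstream peaks had fold enrichments of 31.8 and 21.4 in A and of 17.5 and 16.6 in B2, and they were joined into 1 peak in B1. Apart from MCM2, the offset of a gene varied by at most 34 bp between replicates, and that of CDT1 by 2 bp.

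**Figure D3:**
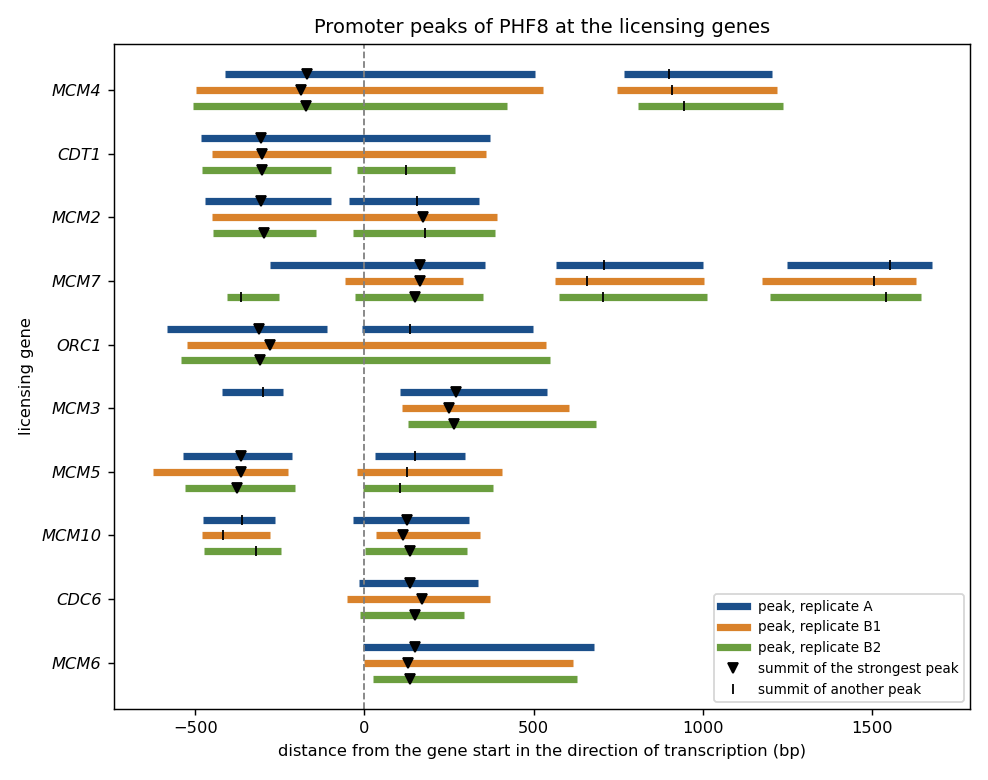
Extent of every promoter peak of the licensing genes along the distance from the gene start in bp (horizontal axis, downstream positive, dashed line at 0), with 1 bar per peak and replicate, a triangle at the summit of the strongest peak and a tick at other summits. The strongest summits of CDT1, ORC1, MCM5 and MCM4 lie upstream in every replicate, those of MCM7, MCM3, MCM10, CDC6 and MCM6 downstream, and MCM2 changes sides.

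Some promoters carried more than 1 peak. The gene start lay inside a peak in all 3 replicates at 6 of the 10 genes (MCM2, MCM4, MCM7, CDC6, CDT1 and ORC1), against 56.0% of bound genes. MCM4, MCM5, MCM7 and MCM10 had at least 2 separate promoter peaks in all 3 replicates, 4 of the 10 genes against 31.9% of bound genes. Summits on both sides of the gene start in all 3 replicates were found at MCM4, MCM5 and MCM10, 3 of the 10 against 16.7% of bound genes. At MCM5 the upstream peak had fold enrichments of 22.3, 13.3 and 11.2 and the downstream peak 9.28, 13.0 and 10.2. At MCM10 the downstream peak was the stronger, with 21.0, 12.0 and 12.7 against 5.98, 6.22 and 4.91 upstream. MCM7 had 2 further peaks inside the gene in every replicate, near internal annotated starts, with fold enrichments between 6.14 and 14.0. MCM6 and CDC6 had a single peak in every replicate. At CDT1 and ORC1 the 2 sides were joined into 1 peak in some replicates and called apart in others, so the count of peaks there differed between replicates.

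The 4 licensing genes with a protein-coding start on the opposite strand within 1 kb, MCM2, MCM4, MCM7 and ORC1, were among the 5 highest. Their median mean percentile was 51.4, and that of the other 6 was 22.3. Over all bound genes, the 2471 with such a neighbour had a median of 61.8 and the 9668 without had 47.5. This division was made after the values were seen and was not tested.

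The other genes of the replication pathway were also bound, and their median rank was higher. All 53 genes of a list covering the remaining origin recognition subunits, control of licensing, MCM paralogs, helicase activation and the fork, and DNA synthesis had a promoter peak in all 3 replicates, against 60.2% of protein-coding genes. Counted with 1 TSS per gene, 47 of the 53 were bound, against all 10 licensing genes and 54.0% of protein-coding genes, and the 6 lost were DDB1, GINS2, GINS3, PRIM2, RFC5 and RPA3. Their median mean percentile was 56.7, against 31.9 for the licensing genes and 50.8 for all bound genes, and 32 of the 53 were above 50. Ranked by recovered fragments, an alternative chosen after seeing the data, the medians were 63.0 for these genes and 34.7 for the licensing genes. The median was 72.7 for ORC2 to ORC6, 64.2 for the 10 genes that control licensing, 52.2 for the MCM paralogs MCM8 and MCM9, 50.5 for the 14 helicase activation and fork genes and 53.5 for the 22 synthesis genes. These are descriptions of chosen lists, and no difference between them was tested.

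By fold enrichment ORC1 had a mean percentile of 32.1, against 35.9 to 92.1 for the other subunits of its complex, ORC2 to ORC6. By recovered fragments its mean percentile was 53.2, above the 34.0 of ORC2 and below the 71.6 to 92.2 of ORC3 to ORC6. ORC6, the smallest subunit, was among the 3 highest of the 53 genes, with fold enrichments of 58.4, 31.6 and 31.2. The highest was POLD3, an accessory subunit of DNA polymerase delta, with 70.4, 43.2 and 45.5 and a mean percentile of 99.5 ± 0.36 (SD, n = 3). DDB1, the adaptor of the CUL4 ubiquitin ligase that degrades CDT1, followed with 64.8, 48.3 and 42.5 and a mean percentile of 99.2 ± 0.56 (SD, n = 3).

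At the low end were CDC7, the kinase that phosphorylates the loaded MCM complex, POLA1, the catalytic subunit of DNA polymerase alpha, and GINS2, a subunit of the active helicase. Their mean percentiles were 10.2 ± 3.95, 15.1 ± 5.14 and 15.3 ± 3.88 (SD, n = 3 each), within the spread of MCM6. The genes whose percentiles over the 3 replicates lay closest to the median of the licensing genes were POLD1, the catalytic subunit of polymerase delta, at a Euclidean distance of 8.88 percentile points, MTBP, a factor in helicase activation, at 9.96, and PRIM2, the large subunit of primase, at 11.7.

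**Figure D4:**
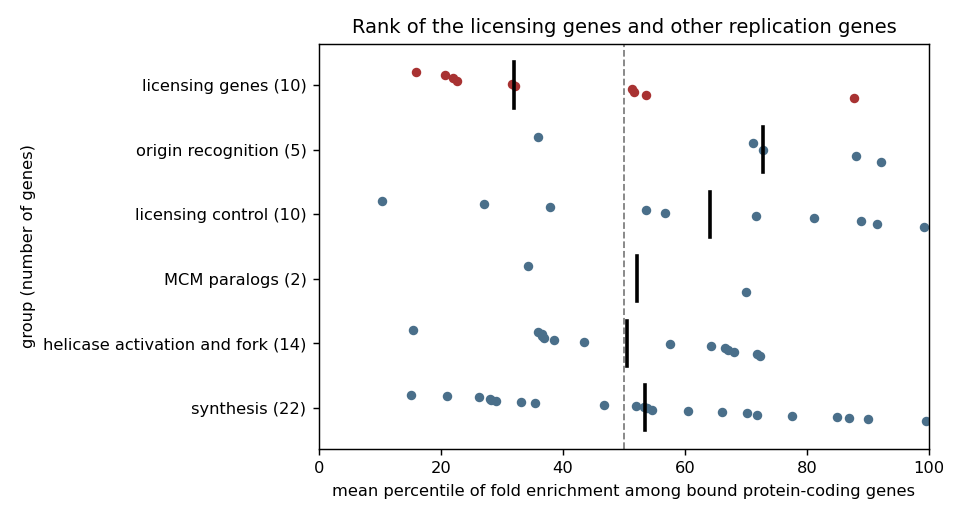
Mean percentile of fold enrichment among bound protein-coding genes (horizontal axis, dashed line at 50) for the licensing genes and for 53 other replication genes by role (vertical axis, number of genes in brackets), with 1 point per gene and a bar at the group's median. The licensing genes have a median of 31.9 and the 53 others together 56.7.

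The promoters were searched for motifs that the choice of genes did not use. Within 250 bp upstream and 50 bp downstream of the gene start, 6 of the 10 licensing genes (MCM2, MCM3, MCM5, MCM6, CDC6 and CDT1) held an E2F match, against 3.26% of all protein-coding promoters, 4.28% of bound ones and 10 of the 53 other replication genes, or 18.9%. In a window of 300 bp centred on the strongest summit of A, the share among the licensing genes was 20.0%. The share over bound genes in that window was not computed, so the fall cannot be called particular to the licensing genes. A CCAAT box, bound by NF-Y, was found in 7 of the 10 promoters, against 35.8% of all and 36.6% of bound ones. A GC box, GGGCGG, bound by SP1, was found in 7 of the 10, near the 64.4% of bound promoters, and in 52.1% of all. The cell cycle homology region TTTGAA was found in 0 of the 10 and in 13.3% of all promoters, which says only that these letters are not in this window. All motifs were searched on both strands.

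**Figure D5:**
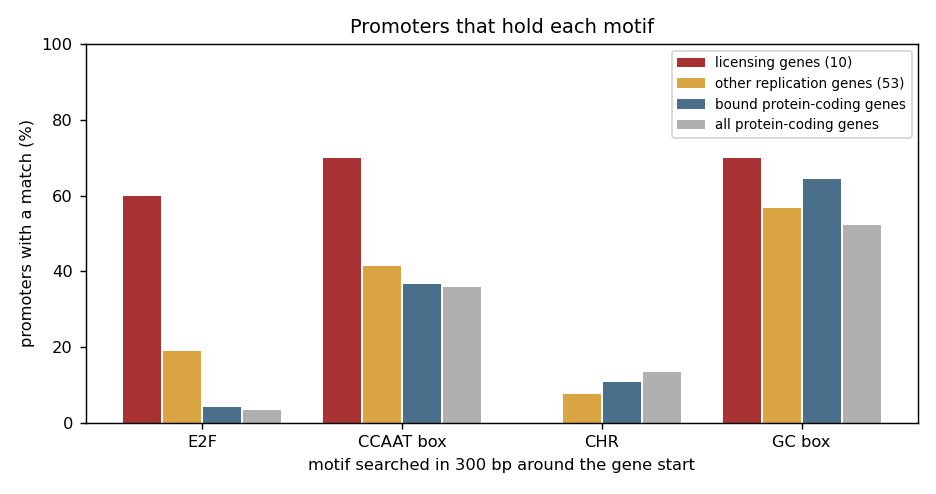
Share of promoters with at least 1 match to each motif (vertical axis, percent) among the licensing genes, other replication genes, bound protein-coding genes and all protein-coding genes, for E2F, the CCAAT box, the cell cycle homology region (CHR) and the GC box. For E2F the share is 60.0% of licensing genes and 3.26% of all protein-coding genes, and for CHR there is no bar for the licensing genes because it is 0.

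The places of the E2F and CCAAT letters were then compared with the peaks. With overlapping matches merged, the 6 promoters held 8 E2F blocks, at 99 to 298 bp from the nearest PHF8 summit, and over all bound genes the median distance of an E2F block was 224, 230 and 216 bp in A, B1 and B2. Peaks held 3, 4 and 3 of these 8 in A, B1 and B2, and over all bound genes 65.6%, 60.0% and 55.4% of 538 E2F blocks. The 2 blocks of MCM6 shown above, at −152 and −90 bp, the block of MCM5 at −193 bp and the match of MCM3 at −35 bp were outside the peaks in all 3 replicates. In MCM5 that block fell in the gap between the upstream and downstream peaks. The block of MCM2, TTTCGCGCGAAA at 4 bp downstream of the start, and the match of CDC6 at 8 bp were inside a peak in all 3 replicates.

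Of the 14 CCAAT boxes of the licensing promoters, 11 were outside the peaks in every replicate, among them the 3 of MCM5 shown above. The number inside a peak was 1, 2 and 1 in A, B1 and B2. Over all bound genes, 44.4%, 36.8% and 33.1% of CCAAT boxes were inside. The licensing genes with an E2F match had a median mean percentile of 27.1 and those without 41.7. Over all bound genes the 2 values were 51.9 and 50.7, so the order seen among the 10 genes was not the order over all genes. Of the licensing genes without a match, MCM4, MCM7 and ORC1 also had an opposite-strand start within 1 kb. Of those with a match, only MCM2 did, so these divisions of the 10 genes overlap and were not told apart. A match to these letters is not evidence that a factor binds there, and binding by E2F or NF-Y was not measured.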

How the data were processed

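PHF8 ChIP-seq of SKMEL-147 cells was analysed from the deposited peak lists of 3 replicates, while the 2 input libraries were not analysed here. The authors aligned reads to hg19 with Bowtie2 and called narrow peaks with MACS in each replicate separately against input, with cutoffs on fold enrichment (1.5) and q-value (0.05). The deposited fold enrichment is a linear ratio, and p-values and q-values were deposited by the authors as −log10 values. The deposited score restates the q-value and was not used.

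A promoter peak overlapped the 1 kb on either side of any TSS of GENCODE release 44 lifted to hg19 by at least 1 bp, after removal of 9 second copies of pseudoautosomal genes. The reference genome was GRCh37, the same assembly. A gene was called bound when it had such a peak in all 3 replicates, and its strongest peak gave its value and its percentile. ChIP fragments were recovered as the whole number that, with the deposited fold enrichment, best gave the deposited Poisson p-value. The −log10 p-value was matched within 0.001 for 100.0% of peaks. Intervals on fragments are exact Poisson 95% intervals. The only test was an exact sign-flip permutation test over replicates. Scripts (Python 3.11.15, numpy 2.4.6, pandas 2.3.3, scipy 1.17.1, pysam 0.24.0) were tested on simulated data.

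The licensing genes and the other lists were chosen with earlier results of these data known. The text names the 10 genes, every gene sharing their peaks, and of the 53 other replication genes the 3 highest, the 3 lowest and the 3 nearest to the licensing genes' median percentiles. Alternatives were stricter cutoffs on q-value and fold enrichment, TSS windows of 500 bp and 2 kb, summits inside the window, 1 TSS per gene, a peak in at least 2 replicates, each replicate left out, recovered fragments, other reference sets of genes and another sequence window.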

Additional observations from a re-analysis of the deposited data

How the results depend on the processing

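The counts of bound genes stayed within 1.5 times their values under every alternative tried. The mean difference between MCM2 to MCM7 and the other 4 genes stayed positive, from 0.21 to 0.34 on the log2 scale with 1 replicate left out. It was 0.04 with recovered fragments against 0.26 with fold enrichment, a larger shift than the spread between replicates. On fragments its sign was not the same in all 3 replicates. With recovered fragments the median percentile of the other replication genes was 63.0 against 56.7. The 10 licensing genes had a promoter peak under every alternative except fold enrichment above 10, with 9. Several alternatives could not lower that count. Looser settings can only keep genes, and the weakest value, 8.40 for MCM6 in B1, was already above the other fold cutoff of 4. The 53 other replication genes numbered 47 with 1 TSS per gene and 51 at fold enrichment above 10. Leaving out 1 replicate gave a median percentile of 30.7 to 35.5, and with all protein-coding genes as the reference it was 59.0, because genes without a peak then count as lower. The mean log2 strength was 4.14 with fold enrichment and 5.87 with recovered fragments, which is another scale. The share of licensing promoters with an E2F match was 60.0% around the gene start and 20.0% around the summit of A. The same shift of window was not made for bound genes, and the cause was not tested. The median summit offset of 6.5 bp ranged from −41.5 to 32.25 bp when 1 replicate was left out and turned sign without B1 (−41.5 bp), since the summits lie on both sides of the TSS and MCM2 changes sides. No paired analysis was possible because the lists hold a single group and the inputs that share a letter with the ChIP samples are not analysed here. Read depth was not given, so counting error is known only at the summits.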
